A study of Mus musculus with 2 samples.

Results

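The genes described here serve autophagy, the lysosome and its proton pump in mouse hybridoma cells, which are hybrids of a B cell and a myeloma cell and secrete antibody. They were chosen by name: 41 genes were listed, and every array probe whose RefSeq accession belonged to a listed gene was kept, which gave 61 probes for 39 genes out of 17302 named genes on the array. No probe carried an accession of Atg9a, a lipid scramblase of the growing autophagosome, or of Gabarapl2, an ATG8 protein, and both are not analysed here. All 39 genes had a probe well above background on both arrays, as did 12857 genes in all.

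The cells, labelled 1H5F9, were kept for 4 h in serum-containing medium with either 0 or 5 µg/ml of BSP-II, a peptide from the bursa of Fabricius, the organ in which birds make B cells. Total RNA of each culture was labelled with Cy3 and hybridised to a single-colour Agilent mouse array, 1 array per dose, both on 1 slide. The design text speaks of a pair of experiments, and both arrays here are labelled replicate 1. The study set out to describe which genes respond to the peptide. Each dose had 1 array, so the differences below have no replicates behind them and carry no test, and "higher" and "lower" describe these 2 arrays. In bulk RNA, fewer cells of a type and less RNA per cell cannot be told apart.

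In autophagy, a membrane sac closes around cytoplasm and delivers it to the lysosome, where acid hydrolases degrade it. A kinase complex and a lipid kinase complex start the sac, a pair of ubiquitin-like conjugation steps attach ATG8 proteins to it, and receptors such as p62 link cargo to ATG8. The vacuolar proton pump (V-ATPase) acidifies the lysosome by rotating a membrane sector, V0, through ATP hydrolysis in a cytosolic sector, V1. Many of these genes are targets of the MiT/TFE transcription factors TFEB and TFE3, which the kinase mTORC1 holds in the cytoplasm when nutrients suffice. In plasma cells autophagy is known to sustain survival and to limit the endoplasmic reticulum and antibody output.

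The genes of autophagy, the lysosome and the V-ATPase differed little between the arrays. The log2 differences of most lay slightly above the median of all genes. Their median log2 difference (BSP-II minus untreated) was 0.07, against −0.03 for all measured genes. Of the 39, 30 (76.9%) lay above the median of all genes, where by construction 50% of all genes lie and where 56.4% of the brighter genes lie, meaning the 6429 genes at or above the median level. A difference was counted from 0.32 on the log2 scale, which is 25% higher or 20% lower. Only Wipi1, at 0.33, passed it on the higher side, where 5.64% of all genes and 2.55% of brighter genes were. Only Atp6v1a, at −0.36, passed it on the lower side, where 14.4% of all genes and 4.09% of brighter genes were. No member reached 1.5-fold in either direction, a size that 1.21% of all genes and 0.28% of brighter genes passed on the higher side, and 4.83% and 0.98% on the lower side.

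Signals are processed signals on the scale of the untreated array. The BSP-II array was brighter, with a 75th percentile of 356 against 309, and its signals were divided by the ratio of 1.15. That ratio was not the same at all levels: after the division, the 25% of genes with the lowest levels had a median log2 difference of −0.19, and each 25% of the genes above them one from −0.02 to 0.03. On that scale the members ran from 43.4 to 56250 on the untreated array and from 49.2 to 64797 on the BSP-II array. Brightness depends on the probe, so signals are set against each other only within a probe. Agilent's own error model gave each member's log2 difference an error of 0.20 to 0.23, which leaves out differences between cultures and hybridisations. Beyond that error, 9 members were higher and 2 were lower, together 28.2% of 39, against 33.6% of all genes and 19.0% of brighter genes. Of the 9, Sqstm1 stood at the limit, with a difference of 0.2041 against an error of 0.2040. Tfe3, also counted, had another probe that pointed the other way.

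**Figure D1:**
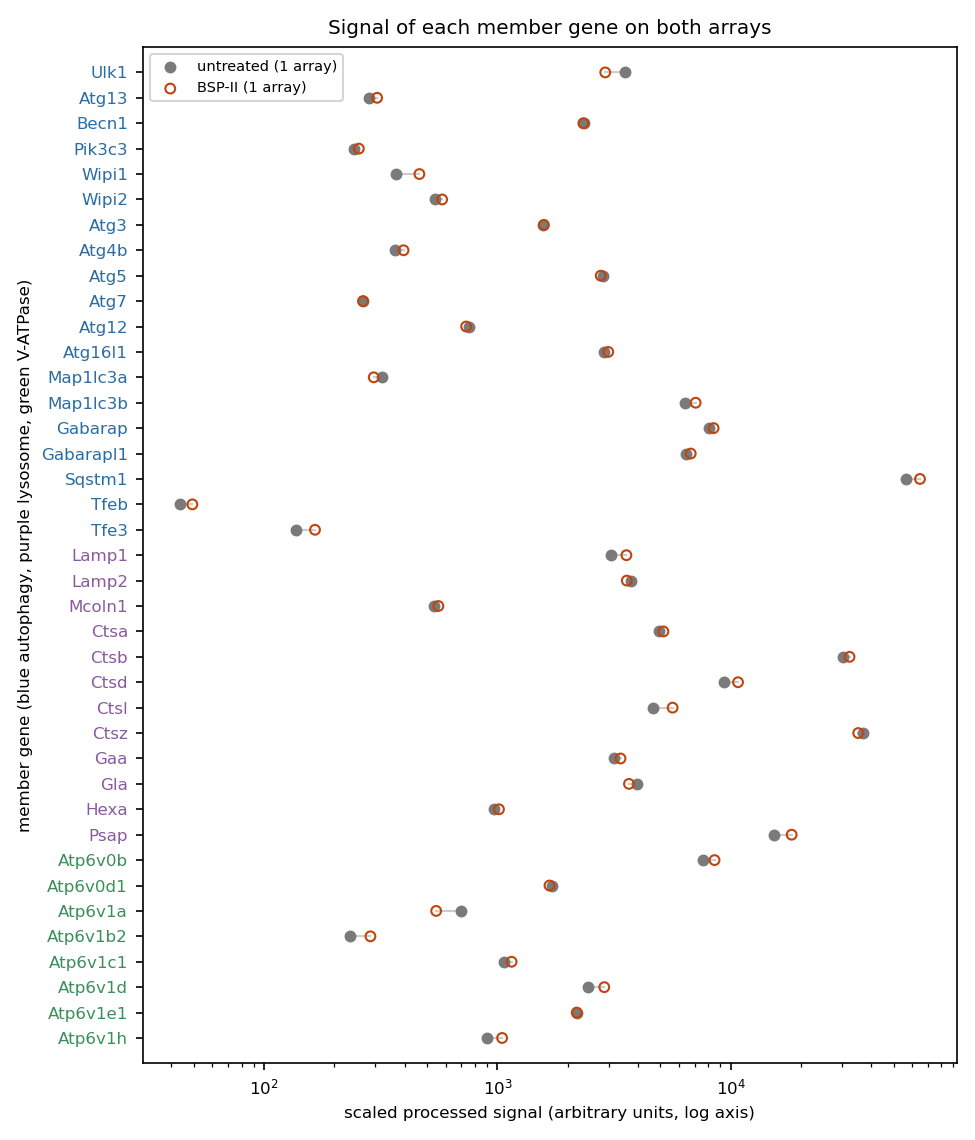
Scaled processed signal of each member gene (log axis, arbitrary units) without BSP-II (filled grey) and with it (open orange), 1 array per dose. The pairs lie close together, from 43.4 and 49.2 for Tfeb to 56250 and 64797 for Sqstm1, and the widest gaps are those of Wipi1 and Atp6v1a.

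The spread of the members was also small. Their log2 differences had an SD of 0.15 and quartiles of −0.0063 and 0.19, whereas all measured genes had an SD of 0.31 and quartiles of −0.19 and 0.11. Brighter genes, to which 31 of the 39 members belong, had an SD of 0.18 and a median of −0.0034. The 31 brighter members had a median of 0.07 and the other 8 members one of 0.12. Of the 31 brighter members, 22 (71.0%) lay above the median of brighter genes. In the 25% of genes with the highest levels, the 21 members had a median of 0.07 and all 3215 genes one of −0.02.

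**Figure D2:**
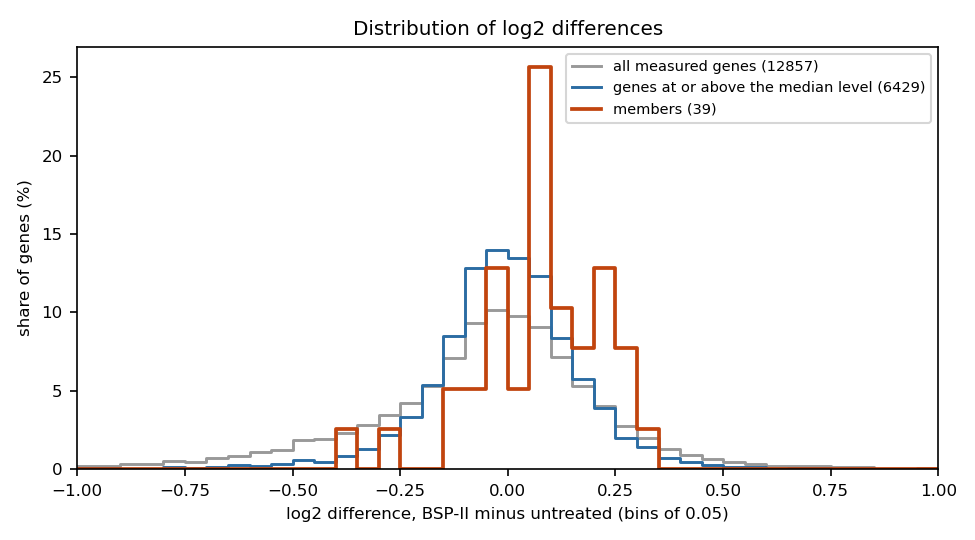
Share of genes (%) in bins of 0.05 of the log2 difference (BSP-II minus untreated) for all 12857 measured genes, the 6429 genes at or above the median level and the 39 members. The members peak to the right of 0, around their median of 0.07, and lack the long lower tail of all genes. That tail is also shorter in the brighter genes, to which 31 of the 39 members belong.

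Among the parts of the pathway, the 8 V-ATPase members had a median log2 difference of 0.14, the 12 lysosomal members one of 0.08 and the 19 autophagy members one of 0.07. Above the median of all genes lay 6, 9 and 15 of them. With so few genes each, and differences near the array error, these medians are not ranked.

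Promoters were examined because TFEB and TFE3 are themselves members. Both bind the CLEAR element, built on the E-box core CACGTG, and lysosomal genes are known for carrying it near their starts. RefSeq promoters (GRCm38.p6, from 250 bases before to 50 bases after the start) were at hand for 32 of the 41 genes, in 37 promoters. Those of Map1lc3a, Pik3c3, Becn1, Atg12, Atg16l1, Ctsb, Atp6v1b2, Atp6v1c1 and Atp6v1h were not in the table. The core with the preceding T of the CLEAR element, TCACGTG on either strand, was held by 11 of the 32 member genes (34.4%), against 4.29% of all 27025 genes in the table and 6.35% of the 10359 measured genes in it. Every such match also holds CACGTG, which 13 of the 32 members (40.6%) and 8.09% of all genes had. By class, TCACGTG was in 6 of 11 lysosomal genes, in 3 of 5 V-ATPase genes and in 2 of 16 autophagy genes, Atg3 and Atg7. A match is a description of the letters, not a binding site shown by an assay.

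The 250 bases before the start are shown for the 4 matching genes with the highest mean levels and for Lamp1, chosen because it had the most matches. Sequences run 5′ to 3′ on the gene's strand, capitals mark TCACGTG on either strand, and the last base is the base before the start. Ctsd is at chr7:142387828-142388077 (minus strand), Atp6v0b at chr4:117887330-117887579 (minus), Ctsa at chr2:164833523-164833772 (plus), Gla at chrX:134601006-134601255 (minus) and Lamp1 at chr8:13158911-13159160 (plus), all in GRCm38.p6.
Ctsd: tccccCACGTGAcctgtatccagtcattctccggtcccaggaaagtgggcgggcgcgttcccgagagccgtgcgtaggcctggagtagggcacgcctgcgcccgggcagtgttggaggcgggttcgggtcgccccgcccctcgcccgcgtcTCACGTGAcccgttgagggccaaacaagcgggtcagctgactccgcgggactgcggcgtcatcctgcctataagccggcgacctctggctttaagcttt
Atp6v0b: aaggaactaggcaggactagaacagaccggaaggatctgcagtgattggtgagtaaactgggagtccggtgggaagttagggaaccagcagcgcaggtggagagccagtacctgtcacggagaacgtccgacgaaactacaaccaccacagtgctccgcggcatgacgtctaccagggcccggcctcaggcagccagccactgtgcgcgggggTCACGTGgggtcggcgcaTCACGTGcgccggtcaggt
Ctsa: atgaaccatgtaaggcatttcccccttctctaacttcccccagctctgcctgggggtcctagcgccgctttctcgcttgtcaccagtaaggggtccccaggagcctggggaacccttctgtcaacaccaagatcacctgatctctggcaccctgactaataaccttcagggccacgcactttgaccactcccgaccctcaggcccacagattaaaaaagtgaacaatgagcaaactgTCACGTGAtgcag
Gla: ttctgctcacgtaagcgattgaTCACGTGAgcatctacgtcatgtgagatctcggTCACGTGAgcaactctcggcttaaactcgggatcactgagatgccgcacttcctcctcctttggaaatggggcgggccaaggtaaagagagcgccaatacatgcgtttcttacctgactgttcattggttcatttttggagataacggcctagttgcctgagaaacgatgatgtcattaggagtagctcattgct
Lamp1: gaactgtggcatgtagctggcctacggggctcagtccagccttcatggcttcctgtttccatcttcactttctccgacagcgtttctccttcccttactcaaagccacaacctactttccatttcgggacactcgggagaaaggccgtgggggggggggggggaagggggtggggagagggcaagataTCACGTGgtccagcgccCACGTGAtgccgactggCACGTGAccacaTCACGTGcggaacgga

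In Lamp1 the 4 cores began 61, 45, 28 and 15 bases before the start. In Atp6v0b they began 36 and 18 bases before it, and in Ctsa 12 bases before it, with another core from base 6 after it. The cores of Ctsd, at 245 and 98 bases, and of Gla, at 227 and 194 bases, lay farther out. Mcoln1 had cores 71 and 45 bases before its start, Atg3 94 and 71, and Atp6v0d1 a core 3 bases before. Single cores stood 131 bases before the start of Atp6v1a, 132 before that of Atg7 and 140 before that of Gaa. Atg5 (14 bases) and Ctsl (236 bases) had the core without the T.

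Members with the motif did not lie higher than those without it. The 11 measured members with TCACGTG had a median log2 difference of 0.07, from −0.36 to 0.23, and 8 of them lay above the median of all genes. The 19 measured members whose promoters lacked it had a median of 0.12, from −0.29 to 0.33, and 15 lay above. Over all measured genes in the promoter table, the median was −0.0054 for the 658 with TCACGTG and −0.03 for the 9701 without it.

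Both transcription factors were at low signals and read slightly higher on the BSP-II array. Tfeb had signals of 43.4 (untreated) and 49.2 (BSP-II), a log2 difference of 0.18 that is smaller than its error of 0.23. Tfe3 had 137 and 165, a difference of 0.27 (1.20-fold). Neither difference held throughout: another Tfe3 probe, at signals of 13.7 and 11.0, gave −0.32, and without background subtraction Tfeb came to −0.02. These genes were measured as RNA, whereas the factors they encode are regulated mainly by where they lie in the cell.

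Of the genes that start the autophagosome, Ulk1, the kinase that triggers it, was lower on the BSP-II array by its brighter probe. Its signals were 3532 and 2899, a log2 difference of −0.29 (1.22-fold), while its other probe, at 503 and 492, gave −0.03. Atg13, a regulatory partner of that kinase, had signals of 281 and 305, a difference of 0.12. The 2 genes thus pointed different ways, and the probes of Ulk1 differed from each other by 0.25.

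The lipid kinase branch held the highest member. Pik3c3, the kinase that makes phosphatidylinositol 3-phosphate, had signals of 243 and 255 (log2 difference 0.07), and Becn1, its regulatory partner, had 2355 and 2335 (−0.01). Wipi1, which binds that lipid on the growing membrane, was highest of all 39 genes, with 369 and 463, a difference of 0.33 (1.26-fold). Both of its probes were higher, the other with 223 and 299 and a difference of 0.42 (1.34-fold). Wipi2, which also binds the lipid and recruits the conjugation machinery, had 541 and 579 (0.10), with −0.03 at its other probe. Both Wipi1 probes passed 0.32.

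The conjugation genes lay near 0. The 6 of them ranged from −0.04 to 0.13, with a median of 0.0097. Atg7, the activating enzyme of both conjugation steps, had signals of 264 and 265, a log2 difference of 0.0041. Atg3, which hands ATG8 proteins to their lipid, had 1565 and 1582 (0.02). Both read nearly alike on the 2 arrays. Atg5, Atg12 and Atg16l1 form the complex that directs this step. They stood at −0.03 (2840 and 2772), −0.04 (755 and 734) and 0.07 (2850 and 2985), and the other probes of Atg12 gave 0.03 and 0.08. Atg4b, the protease that trims ATG8 proteins, had 362 and 396 (0.13), and its other probe, near 50.7 and 64.1, gave 0.34. A further Atg3 probe was not well above background on the untreated array and gives no difference here.

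Among the ATG8 proteins, 3 of 4 read slightly higher and Map1lc3a slightly lower. Map1lc3b, which encodes LC3B, the usual marker of autophagosomes, had signals of 6398 and 7075, a log2 difference of 0.15, and its other probe had 2168 and 2703, a difference of 0.32. Gabarap had 8081 and 8448 (0.06) and Gabarapl1 6459 and 6739 (0.06), with 0.09 and 0.10 at their other probes. Map1lc3a, with 319 and 295, was at −0.11 and below the median of all genes in all 10 alternatives, though above 0 with median scaling. Sqstm1, which encodes the cargo receptor p62, had 56250 and 64797, a difference of 0.20 (1.15-fold) from its 1 probe. Only Map1lc3a of the 5 measured genes of ATG8 proteins and receptor lay below the median of all genes.

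Genes of the lysosomal membrane and lumen were mostly a little higher. Lamp1, a main glycoprotein of that membrane, had signals of 3055 and 3572, a log2 difference of 0.23 (1.17-fold). Lamp2, its relative, which also acts in autophagosome fusion, was at −0.06 (3737 and 3586) by the probe used and at 0.14 (2931 and 3233) by a probe of another RefSeq transcript. Mcoln1, a calcium-releasing channel of the lysosome, had 533 and 558 (0.07).

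Of the 5 proteases, 4 lay above the median of all genes. Ctsl, a cysteine protease, was the highest lysosomal member, with 4655 and 5636, a log2 difference of 0.28 (1.21-fold), by its 1 probe. Ctsd, the main aspartic protease, had 9390 and 10752 (0.20), and 0.14 at its other probe. The cysteine protease Ctsb had 30375 and 32324 (0.09; 0.19 at its other probe). The carboxypeptidase Ctsa, which also protects other hydrolases, had 4908 and 5146 (0.07; 0.08 at its other probe). Ctsz, a cysteine carboxypeptidase, was at −0.07 (36917 and 35213; −0.08 at its other probe), below the median of all genes in 8 of 11 alternatives. For Ctsz and for Ctsa the 2 measured probes gave nearly equal differences, and a further Ctsa probe was not well above background on the untreated array.

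Psap encodes the precursor of the saposins, helpers of sphingolipid breakdown. It had signals of 15389 and 18257, a log2 difference of 0.25 (1.19-fold), and its other probe, with 7814 and 9271, also gave 0.25. No other of the 18 members with several measured probes had probes this close. Gaa, which degrades glycogen, had 3149 and 3370 (0.10), and Hexa, a subunit of beta-hexosaminidase, had 968 and 1015 (0.07). Gla, an alpha-galactosidase, was at −0.11 (3961 and 3663), below the median of all genes in all 11 alternatives, though above 0 with median scaling.

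The V1 sector held both higher and lower subunits. Atp6v1a, the catalytic subunit, was the lowest of the 39 genes, with signals of 699 and 546, a log2 difference of −0.36 (1.28-fold). Its other probe, with 398 and 333, gave −0.26. The spot of the probe used was clustered, which means that at least 2 other spots within 3 rows and columns differed at least 2-fold in a shared direction, as for 8.08% of the probes used for all genes. The spot of the other probe was not clustered. Spots of the probes used for Map1lc3b, Ctsd and Ctsa were clustered too, and those of their other measured probes, given above, were not. Atp6v1b2, whose product alternates with the catalytic subunit around the ring, was the second highest member, with 233 and 285, a difference of 0.29 (1.23-fold) from 1 probe. The genes of these ring partners thus lay at opposite ends of the list.

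Of the other V1 subunits, Atp6v1d, part of the rotating stalk, had 2433 and 2871 (0.24). Atp6v1h, a regulatory subunit, had 901 and 1047 (0.22), with 0.21 at its other probe. Atp6v1c1, of the stalk that holds V1 to V0, had 1071 and 1150 (0.10). Atp6v1e1, of the outer stalk, had 2188 on both arrays (−0.00016), with 0.0068 at its other probe. Of the V0 sector, Atp6v0b, of the proton-carrying ring, had 7587 and 8526 (0.17), and Atp6v0d1, which couples the ring to the stalk, had 1710 and 1672 (−0.03). Of all 8 V-ATPase members, Atp6v1a and Atp6v0d1 lay below the median of all genes.

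**Figure D3:**
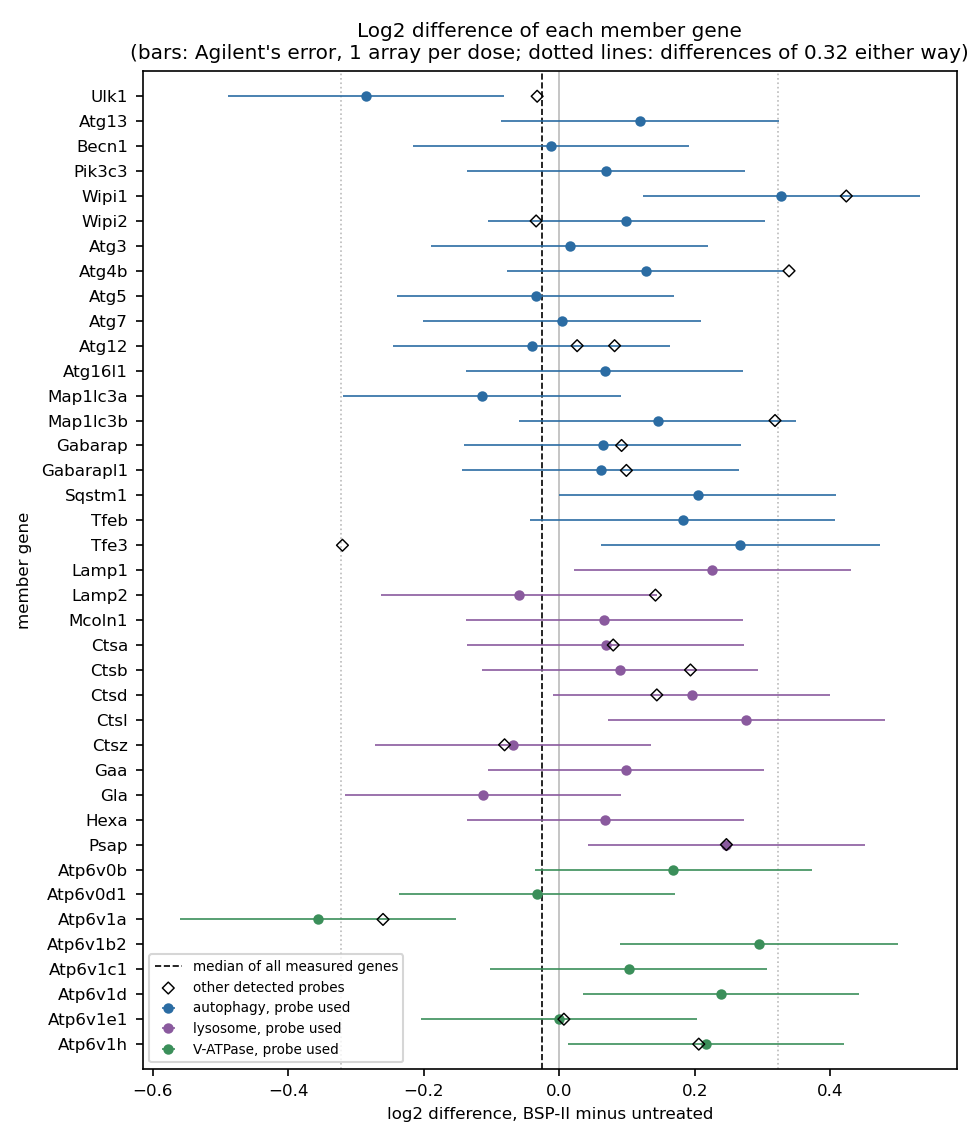
Log2 difference (BSP-II minus untreated) of each member gene by the probe used (filled, with Agilent's error as the bar) and by its other detected probes (open diamonds). The dashed line is the median of all measured genes, −0.03, and the dotted lines mark 0.32 either way. Most points lie between the dashed line and the dotted line on the right, with Wipi1 beyond it at 0.33 and Atp6v1a beyond the left one at −0.36.

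Several measured probes were at hand for 18 members, which gives some check within the arrays, though all probes read the same 2 RNA samples. In 14 of the 18 (77.8%) all probes lay on the same side of the median of all genes, as did 59.7% of the 4032 genes of that kind on the array. The median gap between a member's probes was 0.10, against 0.16 over those genes, and the widest was 0.59, that of Tfe3. Of the 39 members, 31 are brighter genes, whose log2 differences spread less (SD 0.18, against 0.31 for all genes). Probe agreement was not computed over brighter genes alone, so level was not separated from membership here. Atg12, Lamp2, Tfe3 and Wipi2 had probes on both sides. The other 21 members rest on 1 measured probe.

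Other genes of the same pathways were compared through lists. Of 27 other autophagy genes measured, 20 exceeded the median of all genes. The median log2 difference of this list was 0.07, equal to that of the autophagy members to 2 decimals. From 0.32 upwards were 4 of the 27 genes, where 5.64% of all genes were. At −0.32 or below lay 1, where 14.4% of all genes were. The largest differences were those of the cargo receptor Optn (0.69, signals 21.4 and 34.6), the proteases Atg4d (−0.55, with 0.05 at its other probe) and Atg4c (0.51, with −0.35 at its other probe) and the receptor Calcoco1 (0.49, signals 76.5 and 108). These 4 were dim or had a probe that pointed the other way. Bnip3, a mitophagy receptor named after its values were seen, was neither: its 1 probe had signals of 1010 and 1312, a difference of 0.38 (1.30-fold). The spots used for Optn and Atg4d were clustered, and that of Bnip3 was not.

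Of 40 other lysosomal genes, 27 lay above the median of all genes, with a median of 0.03. Only Cd63, a tetraspanin of lysosomes and multivesicular bodies, passed 0.32 either way, at 0.43 (signals 194 and 262, 1.35-fold). Of all genes, 5.64% passed it on the higher side and 14.4% on the lower. The protease Ctsf (−0.30, signals 44.5 and 36.1) and Naglu, an enzyme of heparan sulfate breakdown (−0.25), were lower.

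The other V-ATPase subunits did not share the position of the members: the median of the list was −0.06, with 6 of the 13 measured genes above that of all genes. The isoforms Atp6v1c2 (0.30) and Tcirg1 (0.26) were the highest, and Atp6v1g2 (−0.34, −0.14 at its other probe) and Atp6v0a2 (−0.24) the lowest. The side of that list's median changed in 6 of 12 alternative processings. Atp6v0a4, Atp6v0d2, Atp6v1b1 and Atp6v1g3 were not well above background on both arrays. The 8 members and these 13 genes together do not point 1 way, and no difference between them was tested.

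Of 30 measured regulators of mTORC1 and TFEB, 21 lay above the median of all genes, with a median of 0.05. On the higher side 3 of the 30 passed 0.32, as did 5.64% of all genes. On the lower side 1 did, against 14.4% of all genes. Rragd, a Rag GTPase that recruits mTORC1 to the lysosome and is a known TFEB target, was highest at 0.73 (signals 81.5 and 135, 1.66-fold), and another probe gave 0.92. Ddit4, an inhibitor of mTORC1, was at 0.54 and Depdc5, of a complex that restrains it, at 0.37 but near background (15.7 and 20.3). Sesn2, a leucine sensor upstream of mTORC1, was at −0.43. These inhibitors went both ways.

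**Figure D4:**
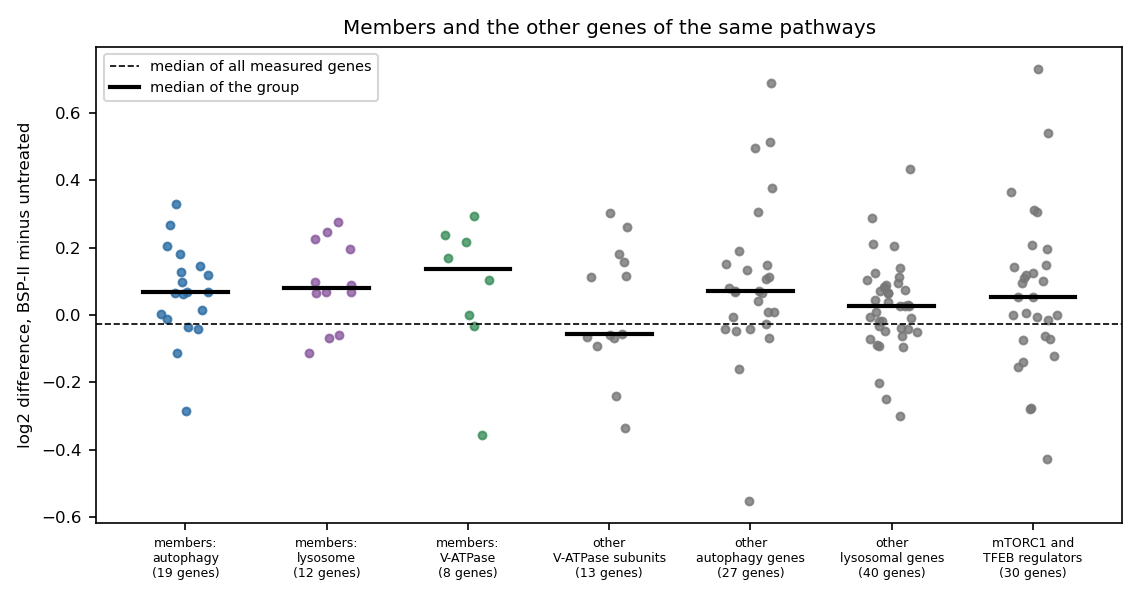
Log2 difference (BSP-II minus untreated) of each measured gene in the 3 classes of members (coloured) and in the 4 lists of other pathway genes (grey), with the median of each group as a bar and the median of all measured genes, −0.03, dashed. The bars of the members lie at 0.07, 0.08 and 0.14, and that of the other V-ATPase subunits at −0.06.

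The labelled cell type was checked by markers. Of 13 markers of B and plasma cells, 12 were well above background on both arrays, among them Jchain, Sdc1, Xbp1, Prdm1 and Irf4, and Pax5, a factor that plasma cells switch off, was not. These 12 had a median log2 difference of −0.16, and 3 of them lay above the median of all genes. Summed over the list, the scaled signal was 256073 without BSP-II and 236103 with it. Of these sums, Jchain alone gave 150869 and 134527, by a clustered spot. Sums of different lists rest on different probes, so each is read only between the arrays and not against another list. For macrophages, which are rich in lysosomes, the 7 markers with a probe summed to 216 and 239, 5 were well above background on both arrays, and Lyz2 was not on either. The summed signals were 398 and 305 for 5 T cell markers, 81.9 and 70.3 for 5 fibroblast markers, 347 and 303 for 4 erythroid markers and 4612 and 4716 for 4 epithelial markers, of which Epcam gave 4123 and 4147.

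Position on the array and scaling were set beside the result. In the earlier rows of the array all genes had a median log2 difference of −0.03 and the 14 members there one of 0.08, and in the later rows all genes had −0.02 and the 25 members there 0.07. Scaling each array to its median instead of its 75th percentile adds 0.12 to every difference, which turns the sign of small negative values such as that of Becn1, so positions relative to the median of all genes are the ones to read. The median of the members lay above that of all features in all 12 alternatives, by 0.07 to 0.17. For median scaling this was fixed in advance, since it shifts all values alike and leaves the gap at 0.09. The authors' table also differs by a constant, so its gap of 0.09 could change only through the genes it holds.

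**Figure D5:**
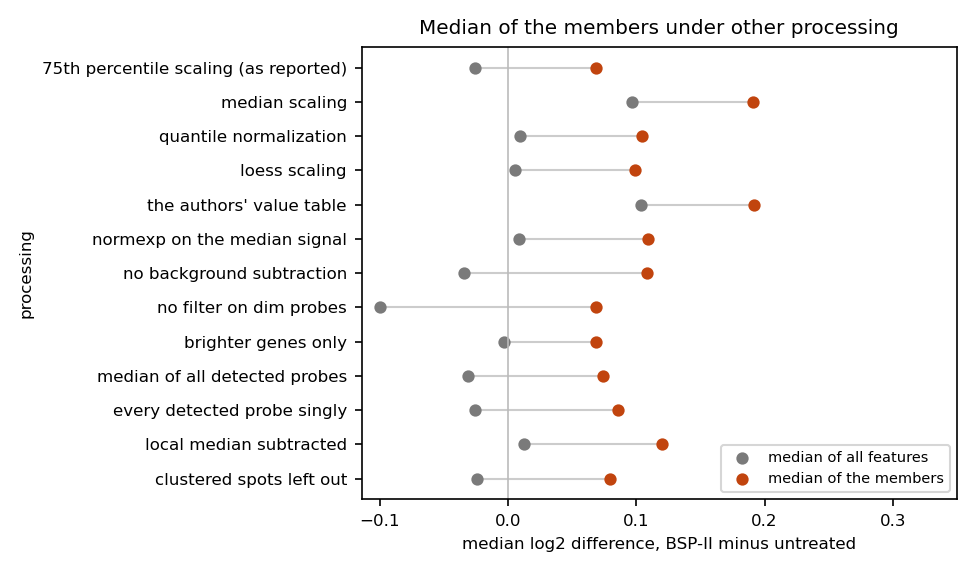
Median log2 difference (BSP-II minus untreated) of the members (orange) and of all features (grey) as reported and under 12 other processings. The orange point lies to the right of the grey one in every line, by 0.09 as reported. Median scaling shifts both points by the same amount, so its gap could not change.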

How the data were processed

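Spots were read with Agilent Feature Extraction; the submitters' processing notes give version 10.5.1.1, and the grid names mm9, per the file headers. The deposited intensity values are the processed signal, background-subtracted and spatially detrended, with its error, and the median signals of spot and local background, per the file headers. The deposited flags (unit "other") mark outlier, saturated and well-above-background spots. The authors' value table is on a log2 scale and differs from the log2 processed signal by 1 constant per array; the origin of the constant is not stated.

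Control spots and 189 outlier spots were left out; no other spot was saturated. The log2 processed signal was reduced by the array's 75th percentile, and spots of a probe were averaged. Accessions were matched without version to RefSeq genes (GRCm38.p6, names only): 25091 of 41163 probes (61.0%) named 1 of 17302 genes. A gene was represented by its probe of highest mean level. A probe was well above background where at least 50% of its spots were; this held for 24683 probes (untreated) and 27284 (BSP-II), down to scaled signals of 11.4 and 6.64. The number of arrays limits the precision, and no p-value can be given.

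All member genes are named, and of each other pathway list the 4 with the largest measured difference, of which 1 lysosomal gene is not reported here. The members and lists were chosen with earlier results of these data known. Steps were tested on simulated data. Alternatives were other scalings (median, quantile, loess), the authors' table, normexp (offset 50, limma 3.58.1 in R 4.3.3) and no background subtraction, both on the median signal, other filters, other probe rules, subtracting the median of the surrounding 10 rows and columns, and omitting clustered spots. Python 3.11.15, numpy 2.4.6, pandas 2.3.3, statsmodels 0.14.6 and matplotlib 3.10.9 were used.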

Additional observations from a re-analysis of the deposited data

How the results depend on the processing

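No paired analysis was possible because each dose has 1 array. The median log2 difference of the members, 0.07, moved to 0.19 with median scaling and to 0.19 in the authors' value table, where the median of all genes moved too, to 0.10 in both. Members above the median of all genes numbered 27 to 35 of 39, or 22 of 31 among brighter genes and 44 of 58 with every probe counted. The count from 0.32 upwards (25% higher) was 1 as reported. It was 9 with median scaling and in the authors' table, where 13.4% and 13.9% of all genes passed. With every detected probe it was 3 of 58, where 6.04% of all such probes passed. With local medians subtracted it was 2 (7.43% of all genes) and without background subtraction 0 (2.39%). The count from −0.32 downwards (20% lower), also 1, was 0 under several settings, given here with the share of all genes that passed. These were median scaling (8.99%), the authors' table (7.39%), normexp (3.66%), no background subtraction (9.03%) and the median of all detected probes (14.4%). Subtracting local medians (12.0%) and omitting clustered spots (13.9%) also gave 0. At 1.5-fold both counts were 0. Atp6v1a therefore passed that size only under some settings (4 of 11), though it stayed below the median of all genes in all 11; Wipi1 passed in 9 of 11. Of 421 values of single genes, 420 moved by less than the array error and none past 0.32 changed sign. The 1 that moved by more was Tfe3, at −0.03 with the median of its probes. In all alternatives run, 25 genes stayed above and 4 below the median of all genes. Part of these counts was fixed in advance, also among the 11 settings of Atp6v1a and Wipi1. Dropping the filter on dim probes or keeping brighter genes only leaves a measured gene's value unchanged. Omitting clustered spots changes only genes whose probe used was clustered. Median scaling and the authors' table add 1 constant, smaller than the array error, to every value. Signal over background limits the dim members, Tfeb above all.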

Other observations

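The widest gap between the arrays among the other V-ATPase subunits was at Atp6v1g3, an isoform of a stalk subunit best known from kidney, named here after its values were seen. By 1 probe it had scaled signals of 3.88 without BSP-II, not well above background, and 199 with it, at least 17.5-fold higher against the lowest detected signal of the untreated array. By its other probe it was not well above background on either array, with 2.59 and 1.41. Each probe has 1 spot, neither spot was clustered, and which probe reads the gene was not tested. Of the remaining subunits below background on at least 1 array, Atp6v0a4 was above it with BSP-II alone by 1 probe (9.95 and 13.0, at least 1.14-fold higher) and by its other probe on neither array. Atp6v0d2 and Atp6v1b1 were above it on neither array. Mitf, a relative of Tfeb, was above background on neither array by a probe with 10 spots (7.83 and 3.99) and with BSP-II alone by a probe with 1 spot (4.28 and 7.40), too dim for a fold.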
